A study of Mus musculus with 12 samples.

Results

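Nfe2l2, Keap1, Nqo1, Gclc, Gclm, Txnrd1, Srxn1, Slc7a11, Gsr and Cat are the transcription factor Nrf2, its inhibitor and 8 genes of the antioxidant defence. They were found by gene symbol in the count tables. All 10 were present among the 51826 gene identifiers of the forelimb data and the 55401 of the culture data, and all 10 passed the filter on low counts that left 19987 and 14030 genes to test. Expression was measured by RNA sequencing of mouse samples in which Impdh2, the gene of a rate-limiting enzyme of guanine nucleotide synthesis, had been deleted with a tissue-restricted Cre recombinase. The 12 libraries formed 6 groups of 2. Forelimbs came from E12.5 embryos, either wild type (WT) or Prx-cKO. The Prx driver, as background, acts in limb mesenchymal progenitors and not in blood, vessels or muscle precursors, so a whole limb holds many cells outside the deletion. Cultures were grown from bone marrow of WT mice or of LysM-cKO mice, whose driver acts in myeloid cells. Whether WT animals carried a floxed allele or Cre is not stated. Marrow, by the protocols in the labels, was expanded for 3 days with L929 supernatant as the source of the macrophage growth factor M-CSF, equivalent to 20 ng/ml, then reseeded and given the osteoclast-inducing cytokine RANKL at 40 ng/ml. The culture titles hold R40D3 or R0D3, names that the labels leave unexplained, and all 8 cultures carry the same cell type, osteoclast, and the same treatment. The 2 names are used here as they stand, and no dose is read from them. Ages of the marrow donors are not given, nor whether the libraries of a group came from separate animals, so p-values measure only the spread between these libraries, which may be technical.

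Nrf2, the product of Nfe2l2, is a leucine zipper transcription factor that is kept at a low level by Keap1, an adaptor that presents it to a Cul3 ubiquitin ligase. Oxidants and electrophiles modify Keap1, Nrf2 then accumulates, pairs with a small Maf protein and binds antioxidant response elements near its target genes. This control acts mostly on the protein, so the level of Nfe2l2 mRNA is not a reading of Nrf2 activity. In bone, reactive oxygen species accompany RANKL signalling during osteoclast formation, and Nrf2 is known to restrain that process.

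The members fall into 5 roles. Nfe2l2 and Keap1 are the regulators. Slc7a11 carries cystine into the cell, Gclc and Gclm are the catalytic and modifier subunits of glutamate-cysteine ligase, the first enzyme of glutathione synthesis, and Gsr returns oxidised glutathione to its reduced form. Txnrd1 is the cytosolic thioredoxin reductase and Srxn1 repairs over-oxidised peroxiredoxins. Nqo1 is a quinone reductase often used as a marker of Nrf2 activity. Cat, catalase, breaks down hydrogen peroxide in peroxisomes. In GRCm38 with GENCODE M21, Nfe2l2 lies on chromosome 2 from 75675513 to 75704641 (minus strand), Keap1 on chromosome 9 from 21229730 to 21239361 (minus strand) and Nqo1 on chromosome 8 from 107388225 to 107403206 (minus strand). Gclc lies on chromosome 9 from 77754535 to 77794485 and Gclm on chromosome 3 from 122245557 to 122270732 (both plus strand), with Slc7a11 on chromosome 3 from 49892526 to 50443614 (minus strand) and Gsr on chromosome 8 from 33652523 to 33698163 (plus strand). Txnrd1 lies on chromosome 10 from 82833951 to 82897712 and Srxn1 on chromosome 2 from 152105516 to 152111376 (both plus strand), and Cat on chromosome 2 from 103453849 to 103485160 (minus strand). Exons of 8 of the 10 genes were free of other annotated genes. For Keap1, 10.9% of exonic bases were shared with the antisense gene Gm16754, and for Gclm 4.71% were shared with Gm17494 and Gm6061. Whether the counting used strand is not given in the sources used here, so a small part of these 2 values could belong to the neighbours.

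The start-site regions of the genes are shown because Nrf2 targets carry the antioxidant response element there or farther off. RefSeq promoters on GRCm38.p6, from 250 bases before to 50 bases after each start, were at hand for 8 of the 10 genes as 10 windows, 3 of them of Txnrd1. Gclc and Gsr are named only. The core of the element, TGACNNNGC on either strand, was found in 4 of the 10 windows (40%) against 12.4% of 32851 RefSeq promoters of the same length. A looser form, TGANNNNGC, which includes every match of the first, was found in 7 of the 10 windows (70%) against 41.3% of all promoters. The 4 windows with the strict core belonged to Nfe2l2, Gclm, Txnrd1 (the second of its promoters) and Srxn1, and their 250 bases before the start follow 5′ to 3′ on the gene's strand. Capitals mark the looser form, on either strand. The stretches are chr2:75704664-75704913 (minus strand) for Nfe2l2, chr3:122245307-122245556 (plus strand) for Gclm, chr10:82858956-82859205 (plus strand) for Txnrd1 and chr2:152105274-152105523 (plus strand) for Srxn1.
Nfe2l2: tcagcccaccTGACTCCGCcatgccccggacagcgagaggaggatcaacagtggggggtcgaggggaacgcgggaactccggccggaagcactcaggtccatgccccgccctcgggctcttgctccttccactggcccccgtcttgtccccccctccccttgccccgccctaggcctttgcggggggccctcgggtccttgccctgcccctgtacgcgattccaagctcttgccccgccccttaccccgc
Gclm: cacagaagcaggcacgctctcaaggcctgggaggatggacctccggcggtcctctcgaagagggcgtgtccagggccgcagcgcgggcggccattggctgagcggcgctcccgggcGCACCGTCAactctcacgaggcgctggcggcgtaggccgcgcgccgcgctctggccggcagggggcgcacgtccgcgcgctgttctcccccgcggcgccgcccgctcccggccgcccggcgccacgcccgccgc
Txnrd1: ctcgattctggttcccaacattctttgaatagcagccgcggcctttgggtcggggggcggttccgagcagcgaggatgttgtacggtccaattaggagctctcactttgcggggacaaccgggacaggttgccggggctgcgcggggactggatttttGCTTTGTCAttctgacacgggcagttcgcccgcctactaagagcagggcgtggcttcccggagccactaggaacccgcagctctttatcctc
Srxn1: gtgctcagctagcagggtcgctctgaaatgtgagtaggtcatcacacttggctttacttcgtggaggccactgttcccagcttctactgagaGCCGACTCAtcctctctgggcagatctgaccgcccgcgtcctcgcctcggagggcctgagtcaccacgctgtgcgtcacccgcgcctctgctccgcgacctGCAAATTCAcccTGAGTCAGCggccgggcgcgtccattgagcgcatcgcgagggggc
Counted from the start site, with the last base before it as -1, the strict core lay at -240 in Nfe2l2 on the gene's strand, and at -134 in Gclm and -92 in Txnrd1 on the opposite strand. The single strict match of Srxn1 lay at 29 and so lies past the stretch printed, while its capitals mark looser matches at -158, -57 and -45. No match in a window says only that these letters are not there: the windows of Nqo1 and Cat held neither form. A match is a description of the sequence and not a binding site measured in these samples.

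The forelimb libraries held 28892215 to 69466572 counts and the culture libraries 16009146 to 19221865, so that 1 count was worth 0.0139 to 0.0348 and 0.0523 to 0.0622 CPM (the depth-scaled count, with library sizes adjusted by the TMM method of edgeR). Replicates of every group differed by more than counting noise, their chi-square statistic over all genes being 10.7 times its degrees of freedom or more. Impdh2 lay at 22.3 to 28.2 CPM in the 4 WT cultures and at 7.03 to 8.38 CPM in the 4 LysM-cKO cultures. It was called lower in edgeR at R40D3 (-1.73 on the log2 scale, SE 0.15, adjusted p = 0.0386) and at R0D3 (-1.81, SE 0.16, adjusted p = 0.0323). In the forelimb Impdh2 was 260.4 and 272 CPM in WT and 169.7 and 199 CPM in Prx-cKO, which did not pass (-0.53, SE 0.16, adjusted p = 0.443). A list of 14 osteoclast markers summed to 1157 to 1346 CPM in the 4 R0D3 cultures and to 14504 to 41061 CPM in the 4 R40D3 cultures. All 14 were called higher at R40D3 in both genotypes, and the calcitonin receptor gene Calcr had no count in any of the 4 R0D3 cultures. The osteoclast label of the R0D3 cultures is therefore not borne out by these markers. The 13 macrophage markers summed to 29505 to 49737 CPM at R0D3 and to 22138 to 31717 CPM at R40D3.

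Cultures and forelimbs used the genes at different relative levels. Divided by exonic length, Cat had the highest level of the 10 genes in every culture group, with means of 393 to 537 CPM per kb, and Nfe2l2 the second, with 87.2 to 120.3 CPM per kb. Srxn1 came next with 48.1 to 69.9 CPM per kb. At the other end Nqo1 had 3.18 to 4.64 CPM per kb and Slc7a11 0.381 to 0.536 CPM per kb. The libraries of Cat, Nfe2l2 and Srxn1 did not overlap in any culture group, nor did those of Keap1, Nqo1 and Slc7a11. The middle of the order was less settled: the libraries of Gsr and Gclm overlapped in both R0D3 groups, and at WT R40D3 those of Gsr overlapped with both Srxn1 and Txnrd1. With the longest transcript in place of the exonic length, Txnrd1 moved ahead of Srxn1 in all 4 culture groups, while Cat and Nfe2l2 kept the first and the second place.

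In the WT forelimb the order was Cat (34.0 CPM per kb), Txnrd1 (24.7), Gsr (18.7), Keap1 (13.6), Gclc (8.54), Nfe2l2 (7.90), Nqo1 (6.70), Gclm (4.12), Slc7a11 (2.33) and Srxn1 (1.59). The libraries of Gclc and Nfe2l2 overlapped, as did those of Slc7a11 and Srxn1, and no other neighbours did. Cat and Txnrd1 changed places when the longest transcript was used. Nqo1 was the fourth lowest gene here and Srxn1 the lowest, whereas in cultures Srxn1 was among the highest. Tables for the 2 sample kinds were normalised apart, so these levels stand side by side with no test. The ratio of 2 genes within a library does not depend on that scaling. Nfe2l2 per kb stood at 0.565 to 0.889 of Keap1 in the 4 forelimb libraries and at 6.94 to 9.27 times Keap1 in the 8 cultures. Gclc per kb stood at 2.07 to 4.64 times Gclm in the forelimb and at 0.436 to 0.659 of Gclm in the cultures. Neither range overlapped between the 2 kinds of sample, nor did they with the longest transcript. In these bulk samples, fewer cells of a type and less RNA per cell cannot be told apart.

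**Figure D1:**
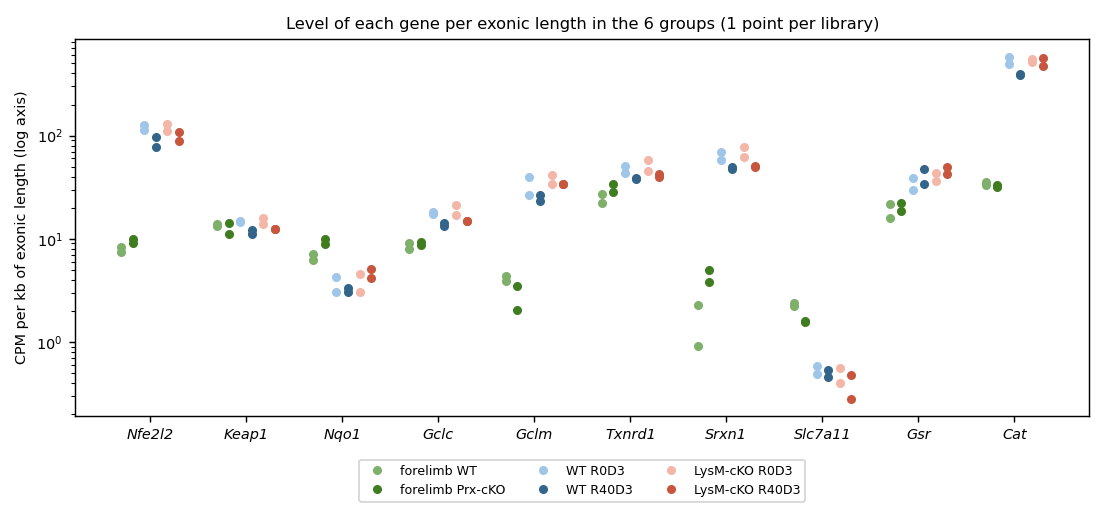
Level of each of the 10 genes in CPM per kb of exonic length (log axis), with 1 point per library in 6 groups of 2 libraries: forelimbs in green, WT cultures in blue and LysM-cKO cultures in red. Cat and Nfe2l2 lead in the cultures, where Slc7a11 stays below 1, and the culture points of Srxn1, Cat and Nfe2l2 stand well above their forelimb points.

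In WT cultures most of the genes had lower levels at R40D3 than at R0D3. Of the 10 genes, 9 had a log2 fold change below 0, the exception being Gsr, and the median was -0.35 against 0.01 over all 14030 genes. None was called by the edgeR quasi-likelihood test without a replicate term, against 16.9% of all genes called in either direction and 5.52% called lower. At an unadjusted p under 0.05 the count was 5 of 10, against 30.3% of all genes, and DESeq2 called 3 (Nfe2l2, Srxn1 and Cat), against 15.9% of all genes. The replicate numbers were found to pair the culture libraries, and with the number as a block 7 of the 10 fell: Nfe2l2, Keap1, Gclc, Gclm, Txnrd1, Srxn1 and Cat. The same fit called 11.6% of all genes lower and 28.3% in either direction.

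Nfe2l2 had 481 and 432 CPM in the WT R0D3 libraries and 368 and 294 CPM in the WT R40D3 libraries. Both R40D3 values were below both R0D3 values, and in each replicate the R40D3 library was the lower one. The log2 fold change was -0.46 (SE 0.15, edgeR adjusted p = 0.0842), a level of 0.725 times that at R0D3. With the block it was -0.47 (SE 0.07, adjusted p = 0.0017, and 0.00105 to 0.333 over 18 alternatives, of which 5 made the call). The alternatives, here and below, include the block itself and the block joined with other scalings or with no filter. Keap1 had 69.03 and 68.46 CPM at R0D3 and 57.4 and 52.3 CPM at R40D3, again without overlap. Its log2 fold change of -0.32 (SE 0.09) had an adjusted p of 0.0546 in edgeR without the block and of 0.0231 with it, and 0.0163 to 0.222 over the alternatives, of which 9 of 18 made the call. The activator and its inhibitor were thus both lower, and the ratio of Nfe2l2 to Keap1 per kb, 8.61 and 7.80 at R0D3, was 7.93 and 6.94 at R40D3, with overlapping libraries.

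Among the glutathione genes the 2 subunits of glutamate-cysteine ligase were lower. Gclc had 65.6 and 68.2 CPM at R0D3 and 49.6 and 53.4 CPM at R40D3, with no overlap (log2 fold change -0.38, SE 0.12, edgeR adjusted p = 0.0685 without and 0.0136 with the block, and 0.0105 to 0.261 over the alternatives). Gclm had 166 and 251 CPM at R0D3 and 145 and 169 CPM at R40D3, so that the groups overlapped: replicate 1 at R0D3 lay below replicate 2 at R40D3. Within each replicate Gclm was lower at R40D3. Its log2 fold change was -0.41 (SE 0.19) with an adjusted p of 0.208 in edgeR and 0.0398 with the block, and 0.0318 to 0.834 over the alternatives. Without WT R0D3 replicate 2 it was -0.08, and without WT R0D3 replicate 1 it was -0.67. The other 2 genes of this role were not called, with or without the block. Gsr had 81.4 and 106 CPM at R0D3 and 94.0 and 130.2 CPM at R40D3, higher at R40D3 in each replicate (0.26 on the log2 scale, SE 0.19, adjusted p = 0.428 in edgeR and 0.0522 with the block). Without WT R40D3 replicate 2 the sign turned to -0.04. Slc7a11 had 8.10 and 6.84 CPM at R0D3 and 7.37 and 6.41 CPM at R40D3 (log2 fold change -0.11, SE 0.28, edgeR adjusted p = 0.832).

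Both genes of the thioredoxin branch were lower in each replicate. Txnrd1 had 310.1 and 359 CPM at R0D3 and 268 and 277 CPM at R40D3, with no overlap (log2 fold change -0.30, SE 0.13, edgeR adjusted p = 0.184 without and 0.0328 with the block, and 0.0197 to 0.588 over the alternatives). Without WT R0D3 replicate 2 it was -0.19. Srxn1 had 164 and 196 CPM at R0D3 and 139 and 133 CPM at R40D3, also apart (-0.41, SE 0.13, edgeR adjusted p = 0.071 without and 0.0197 with the block, and 0.0143 to 0.355 over the alternatives). Cat, the most abundant member, had 1284 and 1525 CPM at R0D3 and 1019 and 1033 CPM at R40D3. Its log2 fold change was -0.45 (SE 0.14, edgeR adjusted p = 0.0648 without and 0.0226 with the block, and 0.00649 to 0.327 over the alternatives). Erythroid markers, whose cells are rich in catalase, summed to at most 0.952 CPM in any culture, and their part in the Cat values was not tested. Nqo1 showed no common direction: it had 4.72 and 6.65 CPM at R0D3 and 5.13 and 4.76 CPM at R40D3, higher in replicate 1 and lower in replicate 2 (-0.19, SE 0.27, edgeR adjusted p = 0.693). In all, 6 of the 10 genes had both R40D3 libraries below both R0D3 libraries, against 29.2% of all genes, and none had both above, against 32.9%. The macrophage markers moved the same way, from 44156 to 49737 CPM at WT R0D3 to 31645 to 31717 CPM at WT R40D3, with 3 of 13 called lower without the block and 9 with it. Their part in the lower values of the 7 genes was not tested.

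**Figure D2:**
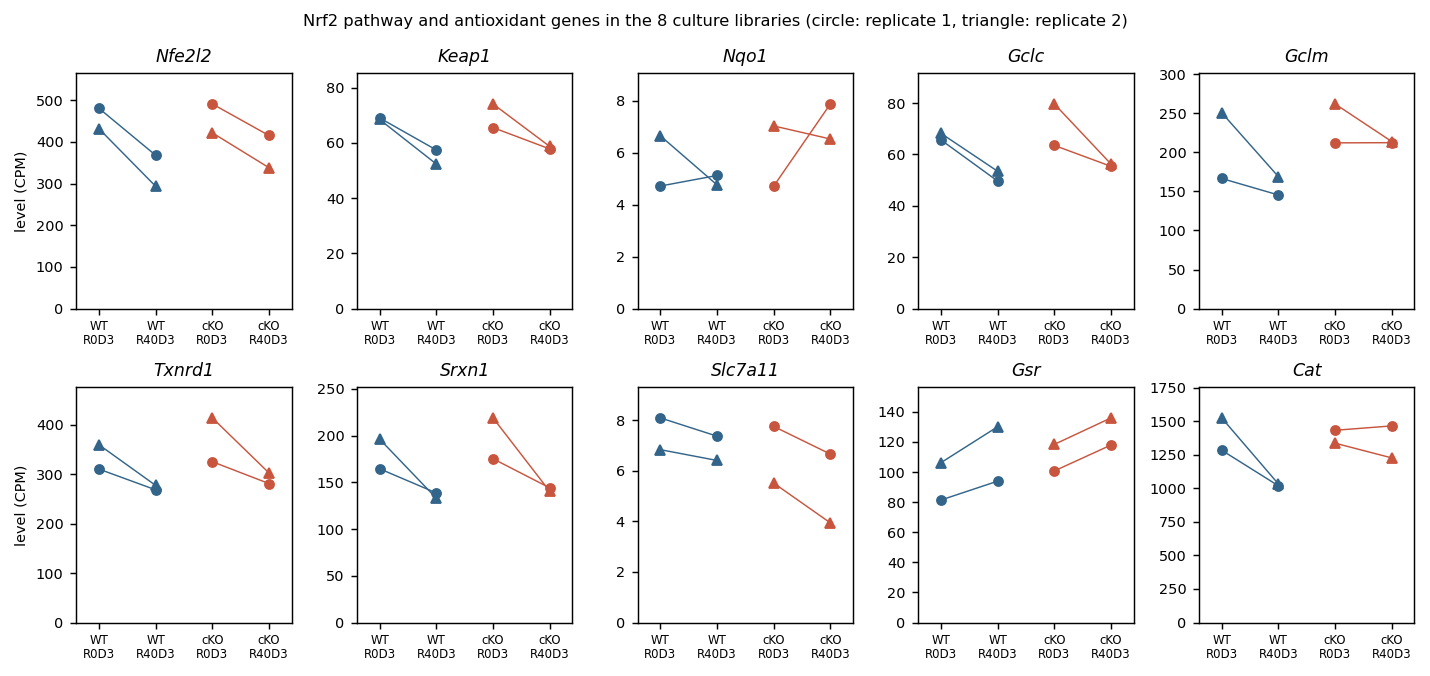
Level of each gene in CPM (linear axes from 0) in the 8 culture libraries, WT in blue and LysM-cKO (cKO) in red, with lines joining the libraries of the same replicate number (circle 1, triangle 2). The lines of Nfe2l2, Keap1, Gclc, Txnrd1, Srxn1 and Slc7a11 go down from R0D3 to R40D3 in all 4 pairs, those of Gsr go up in all 4, and those of Cat go down in both WT pairs but part in LysM-cKO.

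In LysM-cKO cultures the same contrast gave lower values for 8 of the 10 genes, with a median log2 fold change of -0.27 against 0.01 over all genes. None was called without the block, against 10.1% of all genes in either direction and 3.15% called lower. At an unadjusted p under 0.05 there were 4 of 10, against 24% of all genes, and DESeq2 called 1 (Srxn1), against 11.1%. With the block 4 fell: Nfe2l2, Gclc, Txnrd1 and Srxn1, against 8.22% of all genes called lower and 21.3% in either direction. Srxn1 went from 175 and 219 CPM at R0D3 to 144 and 140.4 CPM at R40D3 (log2 fold change -0.47, SE 0.13, edgeR adjusted p = 0.0629 without and 0.014 with the block, and 0.0105 to 0.275 over the alternatives). Gclc went from 63.5 and 79.7 to 55.4 and 56.2 CPM (-0.36, SE 0.12, edgeR adjusted p = 0.106 and 0.024, and 0.0183 to 0.409 over the alternatives). Txnrd1 went from 325 and 414 to 281 and 302 CPM (-0.34, SE 0.13, edgeR adjusted p = 0.166 and 0.024, and 0.0162 to 0.573 over the alternatives). In all 3 the groups were apart, and without LysM-cKO R0D3 replicate 2 the log2 fold changes shrank to -0.30, -0.18 and -0.15.

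Nfe2l2 had 491 and 422 CPM in the LysM-cKO R0D3 libraries and 416 and 338 CPM at R40D3, both below both R0D3 values (-0.28, SE 0.15, edgeR adjusted p = 0.335 without and 0.0269 with the block, and 0.0173 to 0.689 over the alternatives). Without LysM-cKO R0D3 replicate 1 it was -0.17, and without LysM-cKO R40D3 replicate 1 it was -0.43. Keap1 had 65.5 and 74.1 CPM at R0D3 and 57.8 and 58.7 CPM at R40D3, which were apart but did not pass with the block either (-0.26, SE 0.09, edgeR adjusted p = 0.139 and 0.0652). Among the LysM-cKO values, those of the other 5 genes overlapped between R40D3 and R0D3. Gclm had 212 and 262 CPM at R0D3 and 212 and 214 CPM at R40D3, with replicate 1 at the same level in both. Cat had 1432 and 1336 CPM at R0D3 and 1465 and 1227 CPM at R40D3, a log2 difference of -0.04 (SE 0.14, edgeR adjusted p = 0.905), so catalase had no common direction here. Gsr had 101 and 118 CPM at R0D3 and 118 and 136 CPM at R40D3, again higher in each replicate (0.21, SE 0.19, edgeR adjusted p = 0.563). Nqo1 had 4.71 and 7.03 CPM at R0D3 and 7.88 and 6.53 CPM at R40D3, and Slc7a11 had 7.76 and 5.52 CPM against 6.66 and 3.94 CPM, lower at R40D3 in each replicate as in WT (-0.31, SE 0.29, edgeR adjusted p = 0.58). In all, 5 of the 10 genes were lower at R40D3 without overlap, against 22.5% of all genes, and none was higher without overlap, against 27.3%. Macrophage markers here summed to 29505 to 30038 CPM at R0D3 and 22138 to 25404 CPM at R40D3. Their part in these values was not tested.

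The difference between the genotypes in this contrast was itself tested as an interaction, and no gene passed. For all 10 genes the edgeR adjusted p was 1 without the block and 0.811 or more with it, and the all-gene count was 0 in edgeR and in DESeq2, with 1.77% of genes at an unadjusted p under 0.05. Cat had the smallest p of the 10, with an interaction of 0.41 (SE 0.20, unadjusted p = 0.0701), its R40D3 to R0D3 difference being -0.45 in WT and -0.04 in LysM-cKO. Nqo1 had the widest interaction, 0.50 with an SE of 0.37. Those of Keap1, Gclc, Txnrd1, Srxn1 and Gsr lay between -0.06 and 0.06 with SEs of 0.13 to 0.27. That 7 genes fell with the block in WT and 4 in LysM-cKO is therefore not a shown difference between genotypes.

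**Figure D3:**
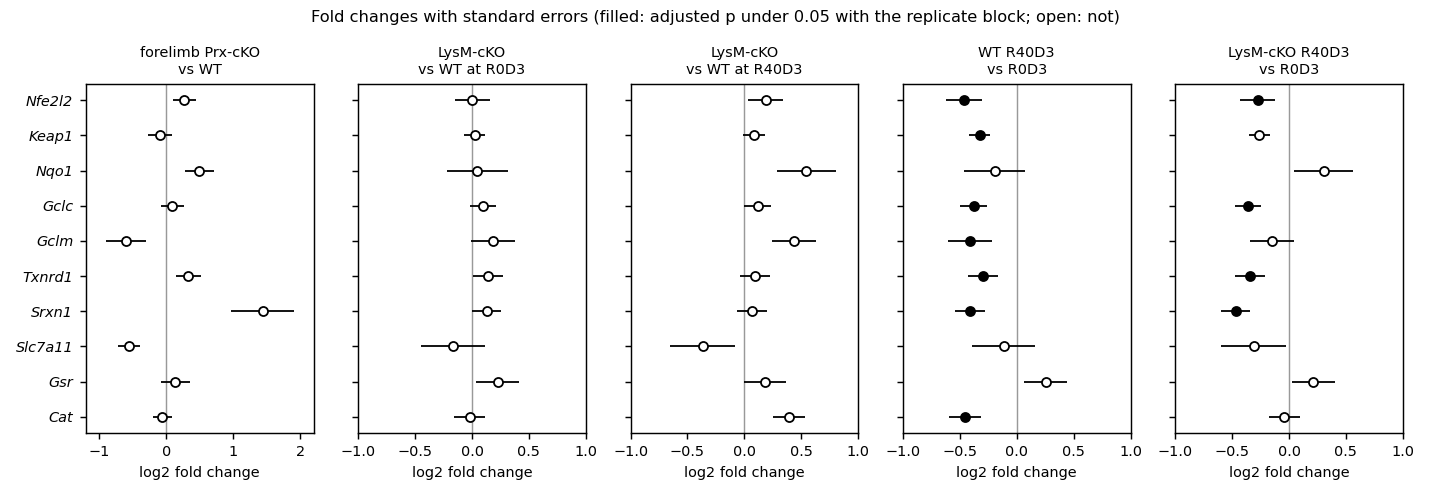
Log2 fold changes (points) and standard errors (bars) of the 10 genes in 5 comparisons, from the edgeR fit without the block. Filled points have an adjusted p under 0.05 in the fit with the replicate number as a block; there are 7 in WT R40D3 against R0D3, 4 in LysM-cKO R40D3 against R0D3 and none in the 3 comparisons of genotypes, and the forelimb axis is wider than the others.

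At R40D3 none of the 10 genes passed the test between LysM-cKO and WT cultures. In this comparison edgeR called 0.0143% of all genes without the block and 0.214% with it, and DESeq2 called 0.148%, with no member among them in any of the 3. The members at an unadjusted p under 0.05 were 1 of 10 (Cat), against 7.47% of all genes. All the same 9 of the 10 had a log2 fold change above 0, with a median of 0.15 against -0.01 over all genes, and for 7 of them (Keap1, Nqo1, Gclc, Gclm, Txnrd1, Srxn1 and Cat) both LysM-cKO libraries lay above both WT libraries, against 19.7% of all genes. These comparisons share the 2 WT R40D3 libraries with the WT contrast above, in which the same 2 libraries were the low ones. Cat had 1019 and 1033 CPM in WT and 1465 and 1227 CPM in LysM-cKO (0.39 on the log2 scale, SE 0.14, adjusted p = 0.648 in edgeR and 0.138 to 1 over 18 alternatives). Gclm had 145 and 169 CPM in WT and 212 and 214 CPM in LysM-cKO (0.44, SE 0.19, edgeR adjusted p = 0.648, and 0.135 with the block). Nqo1 had 5.13 and 4.76 CPM in WT and 7.88 and 6.53 CPM in LysM-cKO, from 78 to 149 counts a library (0.54, SE 0.26, edgeR adjusted p = 0.648). The remaining 4 non-overlapping genes differed by 0.07 to 0.12, Nfe2l2 by 0.19 and Gsr by 0.18. In those 4 the highest WT and the lowest LysM-cKO library lay close together. They had 57.4 and 57.8 CPM for Keap1, 138.6 and 140.4 for Srxn1, 277.2 and 280.9 for Txnrd1, and 53.4 and 55.4 for Gclc. Slc7a11 alone was on the other side, with 7.37 and 6.41 CPM in WT and 6.66 and 3.94 CPM in LysM-cKO (-0.37, SE 0.29). Without LysM-cKO R40D3 replicate 2 it was -0.07. The osteoclast markers also differed at R40D3, with sums of 28101 and 41061 CPM in WT and 14504 to 26658 CPM in LysM-cKO, all 14 with a log2 fold change below 0 but none called without the block and 2 with it. Stromal fibroblast markers summed to 2493 and 2558 CPM in WT and to 769 and 2251 CPM in LysM-cKO. Macrophage markers summed to 31645 and 31717 CPM in WT and to 22138 and 25404 CPM in LysM-cKO. Their median log2 fold change was -0.05, with 6 of 13 above 0, 5 at an unadjusted p under 0.05 and none called. The part of this in the members' values was not tested.

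At R0D3 the genotypes were closer. No member was called by edgeR without the block (0.0143% of all genes were) or with it (0.0214%), or by DESeq2 (0.0675%), none had an unadjusted p under 0.05 (4.42% of all genes did), and in no gene were the groups apart, against 17.5% of all genes apart upward and 14.8% downward. The median log2 fold change was 0.07 against 0.01 over all genes. Single genes ranged from -0.17 in Slc7a11 (SE 0.28) to 0.22 in Gsr (SE 0.19). Nfe2l2 had 481 and 432 CPM in WT and 491 and 422 CPM in LysM-cKO, a log2 fold change below 0.01 in size (SE 0.15). Cat had 1284 and 1525 CPM in WT and 1432 and 1336 CPM in LysM-cKO. In that comparison the sum of the macrophage markers was lower in LysM-cKO (29505 to 30038 CPM) than in WT (44156 to 49737 CPM), and the sum of 13 stromal fibroblast markers was 900.3 and 2377 CPM in LysM-cKO against 1978 and 2066 CPM in WT. Most of the macrophage difference came from Lyz2, the lysozyme M gene after which the LysM driver is named, with mean levels of 16130 CPM in LysM-cKO and 32626 CPM in WT. Over the 13 macrophage markers the median log2 fold change was -0.11, 4 were above 0 and none was called.

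In the forelimb the members were split. Srxn1, Nqo1, Txnrd1 and Nfe2l2 were higher in both Prx-cKO libraries than in both WT libraries, Slc7a11 and Gclm were lower in both, and Keap1, Gclc, Gsr and Cat overlapped. The background was 22.2% of all genes apart upward and 21% downward. None of the 10 passed the test, nor did any of the 19987 genes: 0% were called by edgeR without the block and 0.005% with it, while DESeq2 called 1.45% of genes and no member. The smallest adjusted p of any gene was 0.118. At an unadjusted p under 0.05 there were 2 members (Srxn1 and Slc7a11), against 10.5% of all genes. The median log2 fold change of the 10 was 0.11 against -0.03 over all genes.

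Srxn1 differed most. It had 2.55 and 6.42 CPM in WT and 10.7 and 14.1 CPM in Prx-cKO, a difference of 1.44 on the log2 scale (SE 0.47, unadjusted p = 0.0262, edgeR adjusted p = 0.454). The WT libraries themselves lay far apart, and leaving out WT replicate 1 gave 0.92 and leaving out WT replicate 2 gave 2.29. The other genes on the higher side differed by less. Txnrd1 had 157 and 193 CPM in WT and 199 and 241 CPM in Prx-cKO (0.33, SE 0.18, edgeR adjusted p = 0.582). Nqo1 had 9.71 and 11.1 CPM in WT and 13.7 and 15.5 CPM in Prx-cKO (0.49, SE 0.22, adjusted p = 0.509). Nfe2l2 had 31.6 and 28.3 CPM in WT and 37.7 and 34.4 CPM in Prx-cKO (0.27, SE 0.17, adjusted p = 0.624). For Txnrd1 and Nfe2l2, and for Gclm below, the nearest WT and Prx-cKO libraries lay closer together than the 2 libraries of either genotype. On the other side, the cystine carrier Slc7a11 had 31.4 and 33.4 CPM in WT and 21.9 and 22.0 CPM in Prx-cKO, with close replicates (-0.56, SE 0.17, unadjusted p = 0.0189, edgeR adjusted p = 0.443). Gclm had 24.4 and 27.4 CPM in WT and 21.7 and 12.8 CPM in Prx-cKO (-0.60, SE 0.30, adjusted p = 0.542). Its value rested largely on 1 library: leaving out Prx-cKO replicate 2 gave -0.25, and leaving out replicate 1 of that group gave -1.01. The catalytic subunit Gclc did not share this, with 30.2 and 34.1 CPM in WT and 33.0 and 35.4 CPM in Prx-cKO (0.09, SE 0.17). It turned to -0.01 under scaling by library size alone, a choice that moved the median of all genes by -0.1. The remaining genes overlapped. Keap1 had 65.5 and 62.0 CPM in WT and 52.5 and 67.3 CPM in Prx-cKO, Gsr had 43.6 and 59.6 against 51.5 and 61.8 CPM, and Cat had 85.8 and 91.9 against 87.1 and 83.3 CPM.

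Cell type markers differed between the forelimb groups as well. The 14 cartilage markers summed to 1153 and 1262 CPM in WT and to 400.3 and 507 CPM in Prx-cKO, and 10 limb mesenchyme markers to 1772 and 1926 CPM against 1317 and 1402 CPM. Skeletal muscle markers were at 399 and 413 CPM in WT and 521 and 1109 CPM in Prx-cKO, macrophage markers at 113 and 116 CPM against 137 and 154 CPM, and endothelial markers at 192 and 197 CPM against 250.3 and 250.7 CPM. Log2 fold changes were above 0 in 1 of 14 cartilage and 4 of 10 limb mesenchyme markers. Of those tested, 11 of 12 muscle, 11 of 13 macrophage and 8 of 9 endothelial markers were above 0. None of these was called in edgeR. Stromal fibroblast markers summed to 2774 to 2797 CPM in WT and 2456 to 2560 CPM in Prx-cKO, with 6 of 13 above 0. Surface ectoderm markers summed to 749 to 905 CPM against 909 to 1000 CPM, with 7 of 9 above 0. Erythroid markers overlapped (3157 to 4430 CPM in WT and 3324 to 4177 CPM in Prx-cKO). The part of these differences in the members' values was not tested.

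**Figure D4:**
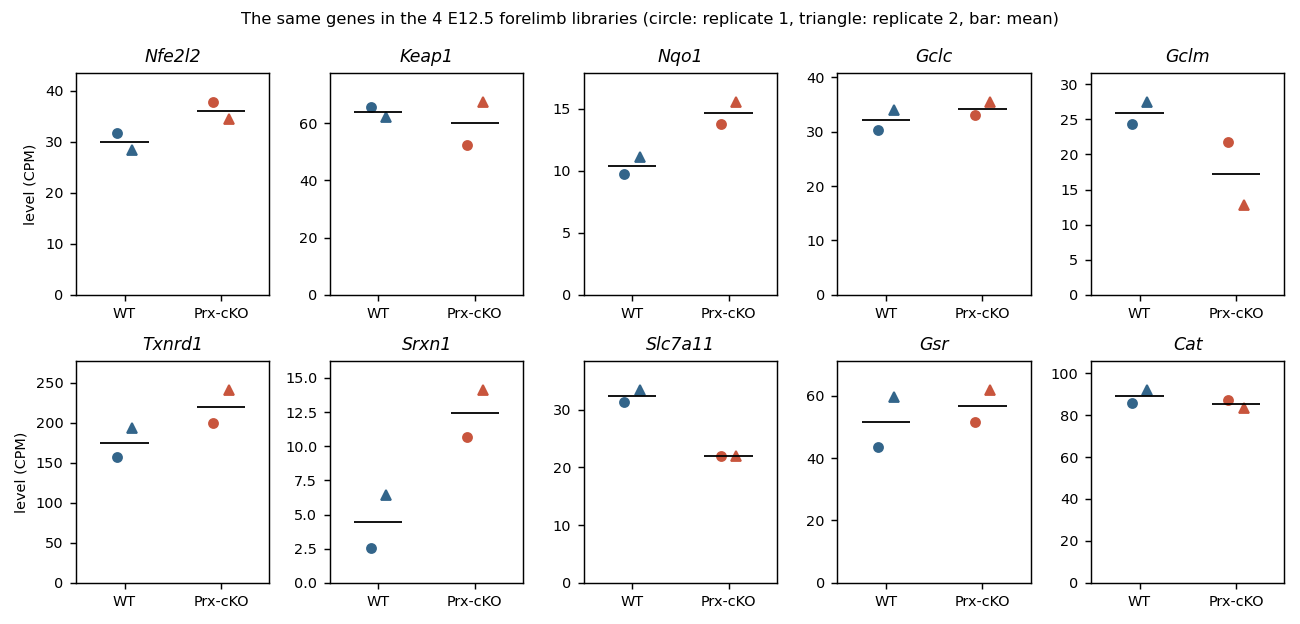
Level of each gene in CPM (linear axes from 0) in the 4 forelimb libraries, WT in blue and Prx-cKO in red, with circles for replicate 1, triangles for replicate 2 and a bar at the mean of the 2 libraries. Srxn1, Nqo1, Txnrd1 and Nfe2l2 are higher in both Prx-cKO libraries, Slc7a11 and Gclm lower in both, and none of the 10 passed the test.

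A further 6 lists of related genes, none of which repeats a member, were read beside the 10. They hold the regulators and partners of Nrf2, genes of glutathione synthesis and use, the thioredoxin and peroxiredoxin system, other antioxidant and detoxification genes, enzymes that supply NADPH, on which Gsr, Txnrd1 and Nqo1 depend, and subunits of the NADPH oxidases, which make superoxide. Between WT R40D3 and R0D3, 38 of the 135 list genes tested were called without the block (28.1%, against 16.9% of all genes), 16 of them higher and 22 lower. With the block there were 73 (28.3% of all genes were called), and at an unadjusted p under 0.05 there were 65 (30.3% of all genes). Single libraries weighed on these counts: 5 calls were left without WT R40D3 replicate 2, 24 without WT R40D3 replicate 1 and, of the WT R0D3 libraries, 11 without replicate 1 and 12 without replicate 2. In LysM-cKO cultures 19 of 135 were called (14.1%, against 10.1% of all genes), 14 higher and 5 lower. There were 42 with the block (21.3% of all genes were called), 12 without the filter on low counts and 3 with only the 4 libraries compared in the model. By library, 2 were left without LysM-cKO R40D3 replicate 2, 3 without LysM-cKO R0D3 replicate 2, 7 without LysM-cKO R0D3 replicate 1 and 6 to 12 without any 1 of the 4 WT libraries. The osteoclast and macrophage marker sums given above differed in the same contrast, and their part in these calls was not tested.

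The calls within these lists went both ways. Beside the counts of each list, the share of all genes called without the block was 16.9% in WT, with 5.52% called lower. In LysM-cKO it was 10.1%, with 3.15% called lower. Among the regulators, 2 of 21 rose and 3 fell in WT (median log2 fold change 0.01). Maff, a small Maf partner of Nrf2, rose from 3.09 and 3.67 CPM at R0D3 to 10.4 and 16.1 CPM at R40D3 (1.97, SE 0.29, edgeR adjusted p = 0.00491), while its relative Mafk fell from 41.7 and 34.6 to 26.5 and 23.2 CPM (-0.62, adjusted p = 0.0138). In LysM-cKO Maff rose (1.52, adjusted p = 0.0239) and Mafk fell (-0.60, adjusted p = 0.0232). The other called regulators named by the rule were Pgam5, a mitochondrial phosphatase that binds Keap1 (0.90 in WT and 0.78 in LysM-cKO), and Fyn, a kinase linked to Nrf2 export from the nucleus (-0.63 and -0.65).

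In the glutathione list 4 of 33 rose and 3 fell in WT (median -0.08), and 4 rose and none fell in LysM-cKO (median -0.02). Of all genes, 16.9% were called in WT (5.52% lower) and 10.1% in LysM-cKO (3.15% lower). Gss, glutathione synthetase, which acts after glutamate-cysteine ligase, rose from 16.1 and 21.4 to 38.0 and 46.1 CPM in WT (1.17, SE 0.22, edgeR adjusted p = 0.0125) and from 15.6 and 20.6 to 29.9 and 41.6 CPM in LysM-cKO (0.98, adjusted p = 0.0355). Gss, of the second step of glutathione synthesis, was thus called higher in the fit without the block. In that fit Gclc, of the first step, was lower but not called (edgeR adjusted p = 0.0685 in WT and 0.106 in LysM-cKO). With the block Gclc was called lower in both genotypes. Hagh, a glyoxalase that frees glutathione, rose by 1.70 and 1.54. The other 2 that rose in LysM-cKO were Slc25a39, a mitochondrial glutathione carrier (0.73), and Gsto1, a glutathione transferase (0.51). Glrx, a glutaredoxin, and Mgst1, a microsomal glutathione transferase, fell in WT by 0.77 and by 0.70 on the log2 scale. In the thioredoxin list 2 of 25 rose and 3 fell in WT, and 1 rose and none fell in LysM-cKO (medians -0.10 and -0.09). Mitochondrial Txn2 rose in both (0.87 and 0.62) and mitochondrial Prdx3 rose in WT (0.86), while Prdx1, a cytosolic peroxiredoxin, fell in WT from 1973 and 2447 to 1342 and 1289 CPM (-0.75, adjusted p = 0.0184), as did Msra, a methionine sulfoxide reductase (-0.75).

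Of the other antioxidant genes 1 of 28 rose and 7 fell in WT (median -0.32), and 1 rose and 2 fell in LysM-cKO (median -0.16). The all-gene shares were again 16.9% in WT (5.52% lower) and 10.1% in LysM-cKO (3.15% lower). Sod2, the mitochondrial superoxide dismutase, rose in both (0.98, adjusted p = 0.00922, and 0.76, adjusted p = 0.0349). Fth1, the ferritin heavy chain and a known Nrf2 target, fell in WT from 12434 and 13436 to 7935 and 7251 CPM (-0.77, adjusted p = 0.0447), and Cbr3, a carbonyl reductase, fell by 0.59 on the log2 scale. The 2 that fell in LysM-cKO were Ugdh and Pon2 (-0.53 and -0.30). Of the NADPH supply enzymes 5 of 19 rose and 2 fell in WT (median 0.09), and 4 rose and none fell in LysM-cKO (median 0.15). The mitochondrial enzymes Me2 (1.70 and 1.16) and Idh2 (0.75 and 0.52) rose in both genotypes, whereas cytosolic Idh1 and G6pdx, which opens the pentose phosphate pathway, fell in WT (-0.55 and -0.53). Nadk and H6pd rose in LysM-cKO (0.76 and 0.41). Of the NADPH oxidase subunits 2 of 9 rose and 4 fell in WT, and 2 rose and 1 fell in LysM-cKO. Rac2 (1.45 and 1.13) and Ncf4 (1.09 and 0.94) rose, and Cybb, the catalytic subunit of the phagocyte oxidase, fell from 1025 and 1125 to 622 and 467 CPM in WT (-0.98, adjusted p = 0.00879) and in LysM-cKO by 0.68 on the log2 scale. Ncf1 fell in WT (-0.47).

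**Figure D5:**
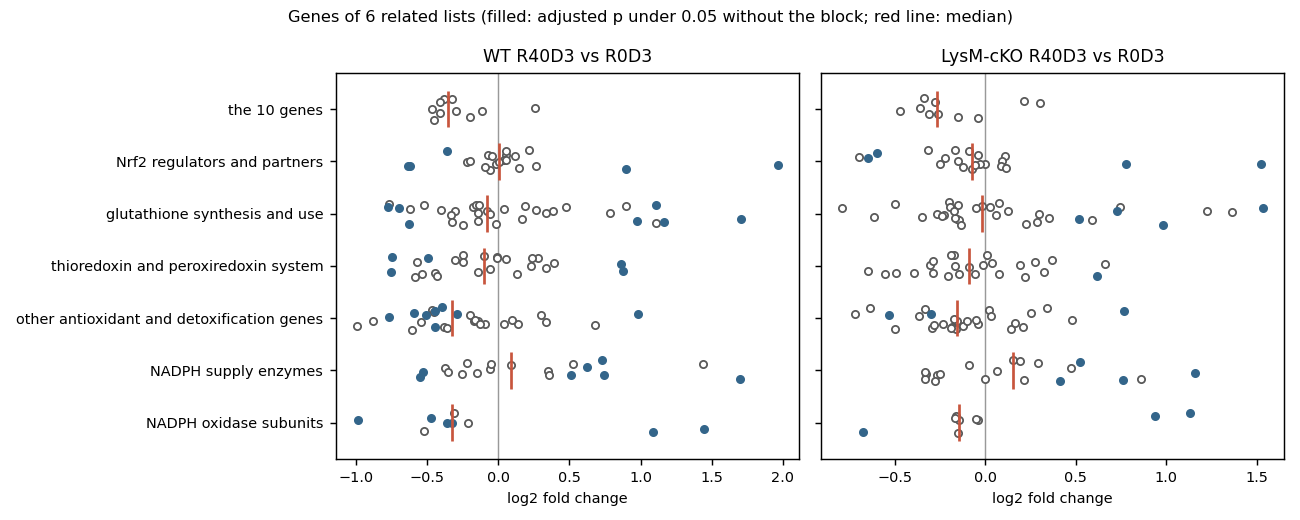
Log2 fold changes of R40D3 against R0D3 for the 10 genes and for 6 lists of related genes (1 point per gene tested, red line at the median), in WT on the left and LysM-cKO on the right. Filled points have an edgeR adjusted p under 0.05 without the block: 38 in WT and 19 in LysM-cKO, on both sides of 0 in the 6 lists, and none among the 10 genes, whose medians are -0.35 and -0.27.

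No list gene was called between the genotypes at R40D3 or R0D3, in the interaction, or in the forelimb, by edgeR with or without the block. At an unadjusted p under 0.05 there were 16 of 135 at R40D3 (7.47% of all genes), 6 at R0D3 (4.42% of all genes), 4 in the interaction (1.77% of all genes) and 36 of 142 in the forelimb (10.5% of all genes), and DESeq2 called 3 of the last. The forelimb list genes with the smallest p included Sesn2, a stress-induced protein that aids peroxiredoxins, with 15.5 and 18.6 CPM in WT and 45.9 and 63.1 CPM in Prx-cKO (log2 fold change 1.68, SE 0.23, unadjusted p = 0.000634, edgeR adjusted p = 0.332). Park7, a redox-sensing chaperone, had 114 and 134 CPM in WT and 217 and 236 CPM in Prx-cKO (0.87, adjusted p = 0.34). Mthfd2, a mitochondrial enzyme of folate metabolism, had 39.0 and 36.3 CPM in WT and 64.6 and 76.3 CPM in Prx-cKO (0.91, adjusted p = 0.34), and Gstp1, a glutathione transferase, had 88.7 and 93.5 against 142 and 172 CPM (0.79, adjusted p = 0.382). The other forelimb genes named by the same rule were Rac2 (1.06), Maff (0.77), Cyba (0.75), Akr1b3 (0.74), Idh2 (0.63) and Txn2 (0.60) above 0, and Gstz1 (-0.80) and Bach1 (-0.44) below it. Maff was 0.28 without Prx-cKO replicate 2, and for Bach1 leaving out WT replicate 2 gave -0.12 and leaving out WT replicate 1 gave -0.72. In the forelimb the medians of the lists ran from 0.06 in the regulators to 0.45 in the other antioxidant genes, against -0.03 over all genes. Between LysM-cKO and WT at R40D3 the list genes with the smallest p were higher for Sesn3 (0.74), Ephx1 (0.49), Gstm2 (0.48), Cybb (0.40), Cbr3 (0.38), Mgst1 (0.31), Fyn (0.29), G6pdx (0.29), Ncf1 (0.28) and Sesn1 (0.20), and lower for Aldh1l2 (-1.14) and Maff (-0.64), all with an edgeR adjusted p of 0.648. Without WT R40D3 replicate 2, Aldh1l2 was -0.41, Maff -0.28 and Cybb 0.22, and without LysM-cKO R40D3 replicate 1, Gstm2 was 0.22, Fyn 0.15 and Mgst1 0.20.

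Genes with the pattern most like that of Nfe2l2 over the 8 culture libraries, by the root mean square difference of centred log2 CPM, were Adap2 (0.0326), Map3k1 (0.0439) and Dennd5a (0.0483), where the median over all genes was 0.323 and the spread of Nfe2l2 itself 0.237. None of the other 9 members was among these 3. For Nqo1, the nearest were Afmid (0.102), Nr6a1 (0.136) and Iqcc (0.151), against a median of 0.342 over all genes and its own spread of 0.276. Nqo1 had only 78 to 149 counts in a culture library, and counting error was not removed from its distances. The 8 libraries share 4 groups and 2 replicate numbers, so these distances describe the libraries and carry no test.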

How the data were processed

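Per the labels' protocols, total RNA was taken up in TRIzol and an mRNA library kit was used. The authors deposited raw read counts per Ensembl gene in 3 tables, 1 for the forelimb and 1 per replicate number for the cultures. The submitters' processing notes name FastQC 0.11.2, Trimmomatic 0.36, HISAT2 2.1.0, DESeq2 1.12.4 and the build GRCm38. The counter, its gene models and whether strand was used are not given in the sources used here. Symbols were matched for 99.6% (forelimb) and 99.5% (cultures) of identifiers. Gene positions and exonic lengths came from GENCODE M21, and promoters from RefSeq.

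Counts were tested as deposited with the quasi-likelihood test of edgeR 4.0.16 (legacy = FALSE, filterByExpr, TMM), two-sided, with Benjamini-Hochberg adjustment over all genes tested with calls made below 0.05. One model held the 4 forelimb libraries and another all 8 cultures, whose groups share 1 estimate of the spread. Each SE was derived from the log2 fold change and its F statistic (size over root F). CPM uses TMM-scaled library sizes. Same-numbered culture libraries deviated together from their group means in all 6 pairs of groups (r from 0.343 to 0.609 across genes), so the numbers were taken to pair them. In the forelimb there is a single pair of groups (r = 0.261). Alternatives were DESeq2 1.42.0, other scalings, no filter, the block, only the 4 libraries compared, leaving out each library, and, chosen after seeing the data, the block with other scalings or no filter. On simulated culture counts of 14030 genes, 78 of 100 genes changed by 1 on the log2 scale were recovered and 98 of 100 changed by 2, with 10 false calls. On simulated forelimb counts of 19987 genes, 18 and 68 of 100 were recovered, with 1 false call. Changed genes were drawn only from those above a minimum expected count, so the rates do not cover the lowest genes. The simulated spread followed the level of a gene and not the gene's own spread. The simulations held no smaller change and no shift shared by a replicate number. They therefore give no recovery rate for smaller changes, such as those of the members between R40D3 and R0D3.

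The 10 genes and the lists were chosen with earlier results of these data known. Each of the 10 was named in each comparison. Of each list, all called genes were named where there were 4 or fewer, otherwise up to 2 rises and 2 falls with at least 5 CPM in the higher group. Where none was called, the 2 with the smallest p were taken, of which the text gives those of the forelimb and of the genotypes at R40D3. Depth limits low genes most. The value of 1 count gives the step of the CPM scale and is not the counting error of a gene. No molecular identifiers were used, so reads may repeat a molecule.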

Additional observations from a re-analysis of the deposited data

Results flagged for a closer look

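Gclm, the modifier subunit of glutamate-cysteine ligase, had differences of opposite sign between knockout and WT in the forelimb and in the R40D3 cultures. Neither was called. Its log2 fold change of knockout against WT was -0.597 in the forelimb, where both Prx-cKO libraries (21.7 and 12.8 CPM) lay below both WT libraries (24.4 and 27.4 CPM). In the R40D3 cultures the log2 fold change of Gclm was 0.439, with both LysM-cKO libraries (212 and 214 CPM) above both WT libraries (145 and 169 CPM). In the R0D3 cultures it was 0.18 with overlapping libraries, and -0.080 without WT R0D3 replicate 1. The forelimb and culture differences come from separate tables and separate Cre lines, and the difference between them was not tested. None passed on its own (edgeR adjusted p of 0.542 in the forelimb, 0.648 at R40D3 and 0.997 at R0D3).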

How the results depend on the processing

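The fold changes of the 10 genes were recomputed under each alternative, and those of the list genes named under each except the 3 that joined the block with another scaling or with no filter. Of 1205 values other than those that left out a library, 1114 kept their direction and their side of the threshold, 56 moved past it, 26 moved back over it and 9 changed sign. Of 1112 values with a library left out, 908 were the same in this sense, 148 moved back over the threshold, 13 moved past it and 43 changed sign, and the lone library left in a group was assumed to vary like the other groups. The totals hold list genes that were named for being called or for the smallest p. In the cultures they also hold fits that left out a library outside the groups compared. The cause of the shifts was not tested.

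Members called in WT R40D3 against R0D3, 0 as reported, were 3 in DESeq2, 1 under library size alone, 1 under DESeq2 size factors in edgeR, 1 without the filter, 2 with only the 4 libraries and 0 to 3 when a library was left out. With the replicate block they were 7, and 6, 7 and 7 when the block went with library size alone, with DESeq2 size factors and with no filter. In LysM-cKO R40D3 against R0D3 they were 1 in DESeq2, 4 with the block, 4, 5 and 4 with the same 3 combinations and 0 to 2 when a library was left out. The block changed no other member call. In the forelimb, a block of each replicate with the unlike-numbered library of the other genotype changed no member call.

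Sign changes other than by leaving out a library came in Gclc in the forelimb (0.09 as reported, -0.0091 under library size alone and -0.0065 with the block as well). The others were in Nfe2l2 between genotypes at R0D3 (0.00095 as reported): -0.0043 in DESeq2, -0.0036 under DESeq2 size factors, -0.013 without the filter, -0.0017 with the block, -0.0088 with only the 4 libraries, -0.0064 with the block and DESeq2 size factors and -0.017 with the block and no filter.

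Leaving out a library turned the sign of several small values. In the forelimb the ranges were -0.28 to 0.090 for Keap1, -0.029 to 0.19 for Gclc and -0.11 to 0.39 for Gsr. In WT R40D3 against R0D3 they were -0.43 to 0.070 for Nqo1, -0.25 to 0.015 for Slc7a11 and -0.041 to 0.46 for Gsr. In LysM-cKO they were -0.30 to 0.0096 for Gclm and -0.17 to 0.043 for Cat. Between genotypes at R40D3 it was -0.040 to 0.45 for Gsr. At R0D3 they were -0.14 to 0.10 for Nfe2l2, -0.072 to 0.082 for Keap1, -0.27 to 0.31 for Nqo1, -0.078 to 0.23 for Gclc, -0.080 to 0.51 for Gclm, -0.045 to 0.28 for Txnrd1, -0.044 to 0.26 for Srxn1, -0.46 to 0.050 for Slc7a11 and -0.14 to 0.11 for Cat. In the interaction they were -0.11 to 0.19 for Gclc, -0.070 to 0.52 for Gclm, -0.18 to 0.14 for Txnrd1, -0.19 to 0.11 for Srxn1, -0.61 to 0.11 for Slc7a11 and -0.25 to 0.24 for Gsr.

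All genes called in the forelimb were 0 as reported, 301 in DESeq2, 1 with the block or its crossed form and 0 to 603 when a library was left out, the highest without WT replicate 1. In WT R40D3 against R0D3 they were 2367, 3977 with the block and 689 to 2425 when a library was left out. In LysM-cKO they were 1422, 2983 with the block, 533 with only the 4 libraries and 399 to 1317 when a library was left out. Between genotypes at R40D3 they were 2, with 16 in DESeq2, 30 with the block and 0 under library size alone, with only the 4 libraries or with any library left out. At R0D3 they were 2, with 7 in DESeq2, 3 with the block, 0 with only the 4 libraries and 0 to 1 when a library was left out. The share of member promoters with the motif was 70% for the looser form against 40%.

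Each group held 2 libraries, and 1 count was worth at most 0.0622 CPM. Slc7a11 and Nqo1 had the lowest levels of the 10 genes in cultures, and Nqo1 had 78 to 149 counts in a culture library.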
